A study of Mus musculus with 2 samples.

Results

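The genes described here are those of transforming growth factor beta (TGF-beta) and bone morphogenetic protein (BMP) signalling, in mouse lung examined 12 weeks after carcinogen treatment. They were chosen by symbol: the TGF-beta, BMP, growth differentiation factor (GDF) and inhibin ligands, their receptors, the numbered SMAD genes, Id1 to Id4, and Inha, Eng, Nog, Chrd, Grem1, Fst and Tgfbi. The rule uses symbols alone, but this group of genes was taken up with earlier results of these data known. Of 13840 genes with a probe of their own on the array, 48 met it, each with a single probe. Another 14 protein-coding genes of the same symbol rule, among them Smad4, Smad7, Id2, Id3, Fst, Inhbb and Gdf15, were not analysed here, because no probe in the annotation used here carried them alone.

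RNA was measured on 1 one-colour array of wild-type lung and 1 of lung from Rosa26-Foxm1 mice, which carry a transgene for the forkhead transcription factor Foxm1 named for the broadly active Rosa26 locus. The RNA of each array was a pool of left lobes from 3 mice. The labels give wild-type mice as male and FVB/N, and those of the other array give neither sex nor strain. Ages are not given for either group. All mice of both groups had received 3-methylcholanthrene (MCA), a carcinogen, once at 15 µg per g body weight, and then 6 weekly injections of butylated hydroxytoluene (BHT), a lung tumour promoter, the first at 150 and the later ones at 200 µg per g. Both arrays are thus of treated lung, and lung of untreated mice was not analysed here. Replicate spread cannot be measured with 1 array per group, so no test was made. Every value below describes these 2 pools. The only error that could be measured is the probe SD of 0.31 on the log2 scale, the error of a single probe's difference taken from pairs of probes in 317 other genes (0.38 for the dimmer and 0.23 for the brighter pairs). It holds no variation between mice.

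TGF-beta family ligands are secreted dimers that bring together type I and type II receptor kinases at the cell surface. In the classical branches, TGF-beta and activin receptors phosphorylate Smad2 and Smad3, and BMP receptors phosphorylate Smad1, Smad5 and Smad9. These enter the nucleus with Smad4, while Smad6 and Smad7 inhibit. In lung, TGF-beta is known for its control of matrix and of epithelial growth, and the BMP receptors of endothelium for their part in hereditary pulmonary hypertension and telangiectasia.

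Receptors were the lower class in Rosa26-Foxm1 lung. All 10 measured receptor genes lay below 0 in log2 difference (Rosa26-Foxm1 minus wild type), with a median of -0.60, and all 10 stayed below 0 with median scaling, loess scaling and the deposited values. They were led by the coreceptors Tgfbr3 (2.28-fold lower) and Eng (1.82-fold lower) and by Tgfbr2 (1.82-fold lower). The measured BMP ligands were also all below 0, and Bmp2 (2.13-fold) and Bmp6 (1.74-fold) were lower. The BMP ligand Bmp4 and the 3 TGF-beta ligands differed by less than the probe SD. In the other direction stood Inhba, the activin A subunit, at 5.96-fold higher. Across 9518 genes measured on the array, 56% lay below 0, and the median difference was -0.06.

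A gene was counted as measured where its quantile-normalised intensity exceeded the median of the array, here called the floor (1.00 in arbitrary units), on either array. Of the 48 genes, 31 passed and 17 were below the floor on both arrays. Of the 31 genes, 3 were at least 1.5-fold higher (Inhba, Gdf9 and Id4), a share of 9.68% where 7.1% of all measured genes were as high. At least 1.5-fold lower were 9 genes (Tgfbr3, Bmp2, Nog, Eng, Tgfbr2, Bmp5, Acvr1, Bmp6 and Acvrl1), or 29.0%, where 8.46% of all measured genes were as low. The other 19 lay between. Gdf9, Id4, Nog and Smad3 were measured only through the array on which they were high, so their folds are lower bounds and their differences were fixed in direction by the floor. Among the 27 genes above the floor on both arrays, 8 were at least 1.5-fold lower (29.6%, with 7.7% of all genes so measured) and 1 was higher (3.70%, with 6.02% of all). Each of the 31 has 1 probe, so no second probe checks any of these values, and 18 of them (58.1%) differed by more than the probe SD, 15 downward and 3 upward, where 42.8% of all measured genes did. Gdf9, Id4 and Nog are among the 18, with their direction fixed by the floor. Smad3 is not counted among them, but its value of -0.20 is a bound and does not place it inside the probe SD.

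**Figure D1:**
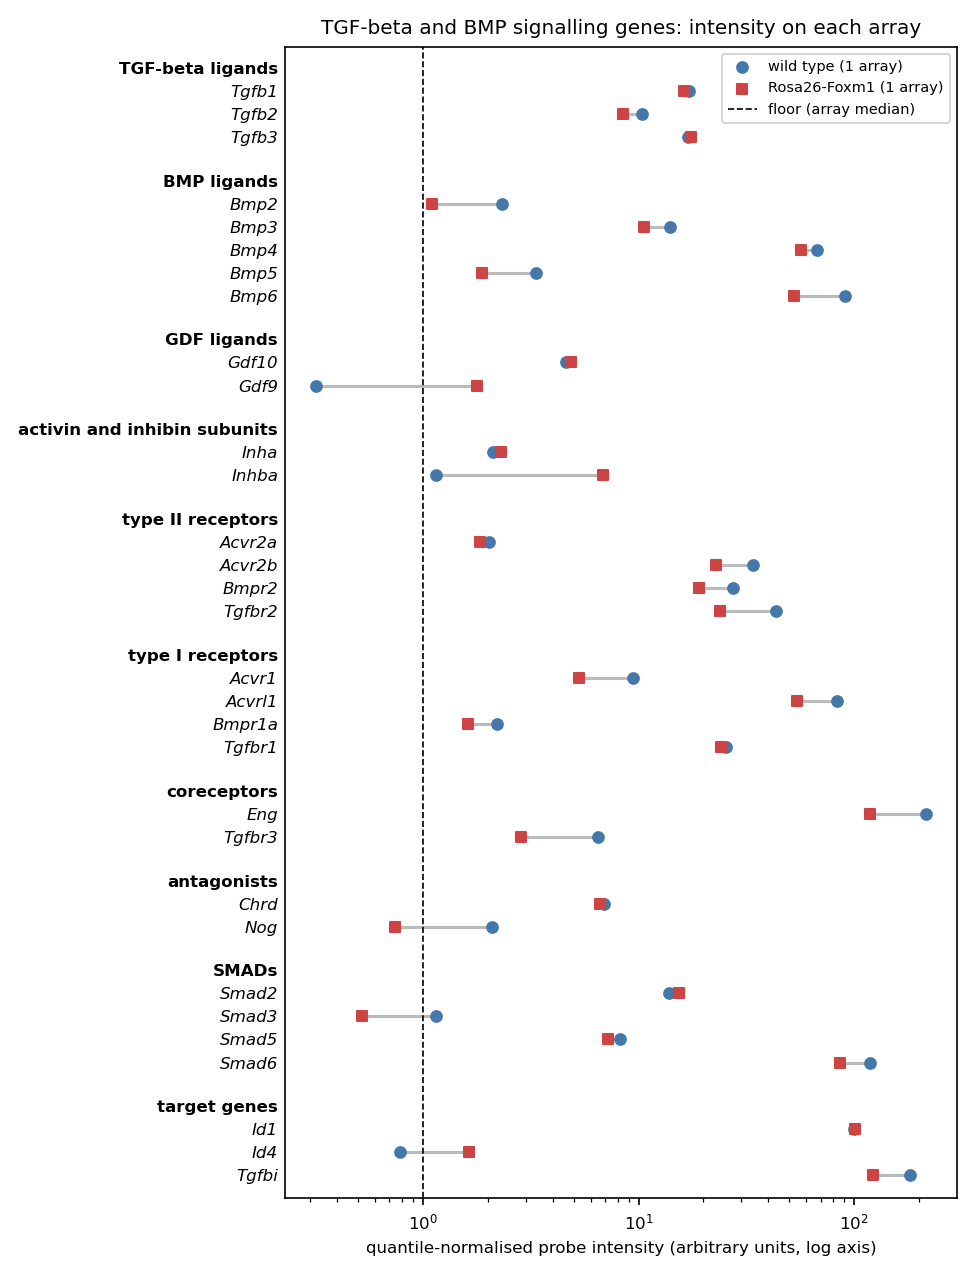
Quantile-normalised probe intensity (arbitrary units, log axis) of the 31 measured genes on the wild-type array (blue circles) and the Rosa26-Foxm1 array (red squares), 1 array each, grouped by role, with the floor as a dashed line. Among the receptors every red square lies left of its blue circle, and Inhba runs from near the floor at 1.15 to 6.86; intensities of different genes come from different probes and are not to be ranked.

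Promoter sequences are shown for 5 genes: Eng and Tgfbr2 as receptors more than 1.5-fold lower, Bmpr2 as a receptor short of 1.5-fold whose window holds another SMAD motif, Bmp6 as a ligand that was dimmer with them, and Inhba as the gene that went the other way. Each run is the 250 bases before the annotated start of the gene, from RefSeq on GRCm38.p6, written 5′ to 3′ on the gene's strand. Capitals mark matches to 6 motifs searched on both strands: the SMAD box CAGAC, the GC-rich SMAD site GGCGCC, the forkhead core TAAACA, the AP-1 site TGACTCA, the cyclic AMP response element TGACGTCA and the ETS site CCGGAA. No match overlapped another in these windows.
Eng, chr2:32646345-32646594, plus strand: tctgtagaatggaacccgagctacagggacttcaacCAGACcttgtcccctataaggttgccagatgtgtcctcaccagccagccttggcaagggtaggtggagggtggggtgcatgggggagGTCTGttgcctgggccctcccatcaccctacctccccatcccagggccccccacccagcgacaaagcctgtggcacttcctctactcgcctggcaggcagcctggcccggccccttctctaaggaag
Tgfbr2, chr9:116175364-116175613, minus strand: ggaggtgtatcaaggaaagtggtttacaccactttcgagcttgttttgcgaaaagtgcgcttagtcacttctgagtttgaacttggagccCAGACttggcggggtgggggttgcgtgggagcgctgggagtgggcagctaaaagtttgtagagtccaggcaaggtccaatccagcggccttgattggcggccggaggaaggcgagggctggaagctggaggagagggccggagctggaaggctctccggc
Bmpr2, chr1:59764029-59764278, plus strand: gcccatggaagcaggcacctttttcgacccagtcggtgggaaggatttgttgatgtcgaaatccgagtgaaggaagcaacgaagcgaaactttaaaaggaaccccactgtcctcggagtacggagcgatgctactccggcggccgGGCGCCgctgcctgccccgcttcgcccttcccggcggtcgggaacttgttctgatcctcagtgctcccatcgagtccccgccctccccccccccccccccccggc
Bmp6, chr13:38345466-38345715, plus strand: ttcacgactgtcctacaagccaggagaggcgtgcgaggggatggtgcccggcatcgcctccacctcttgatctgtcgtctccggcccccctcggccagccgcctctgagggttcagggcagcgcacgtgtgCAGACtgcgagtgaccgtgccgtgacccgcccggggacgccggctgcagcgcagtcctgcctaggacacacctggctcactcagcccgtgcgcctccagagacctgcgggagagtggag
Inhba, chr13:16011601-16011850, plus strand: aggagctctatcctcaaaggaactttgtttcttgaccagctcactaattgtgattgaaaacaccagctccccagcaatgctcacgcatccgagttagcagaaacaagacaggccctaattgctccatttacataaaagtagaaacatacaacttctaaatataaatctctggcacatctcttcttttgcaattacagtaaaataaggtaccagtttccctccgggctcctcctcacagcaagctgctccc
The Eng window held 2 SMAD boxes, the first letter of each at 214 and 127 bases before the start. Tgfbr2 and Bmp6 held 1 each, at 160 and 119 bases, and Bmpr2 held 1 GC-rich SMAD site at 105 bases. The Inhba window held none of the 6. RefSeq windows were found for 22 of the 31 measured genes (25 windows, since some genes have several starts). A SMAD box stood in 12 of the 25 windows and in 42.2% of all 32851 windows of that length, and a GC-rich SMAD site in 7 of 25 and in 9.59% of all. The ETS site stood in 2 of the 25 (Acvr1 and Bmp4) and in 12.0% of all. The forkhead core, the AP-1 site and the cyclic AMP response element stood in none of the 25, and in 12.0%, 4.46% and 1.55% of all. These are letter matches in short windows and say nothing of binding.

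Among the ligands, Tgfb1, the isoform best known from immune regulation and fibrosis, had normalised intensities of 17.1 for wild type and 16.2 for Rosa26-Foxm1 (log2 difference -0.07). Tgfb3 had 17.0 and 17.6 (0.05), and Tgfb2, an isoform of epithelial and mesenchymal development, 10.3 and 8.45 (-0.29). All 3 TGF-beta ligands therefore lay within the probe SD of 0.31, with 48.3% of all measured genes lower in difference than Tgfb1 and 60.4% lower than Tgfb3.

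BMP ligands were dimmer on the Rosa26-Foxm1 array in 5 of 5 measured genes, with a median of -0.80. Bmp2, a ligand of BMP type I receptors with roles in endothelium and bone, went from 2.33 to 1.10, close to the floor, so its 2.13-fold difference is between dim values. Bmp6, which liver endothelium makes to set iron uptake through hepcidin, went from 91.1 to 52.3 (deposited intensities 87.5 and 53.2), well above the floor on both arrays. Bmp5 had 3.36 and 1.88 (1.79-fold lower). Lower values thus came from dim probes and from a bright one. Bmp4, a ligand of lung branching, gave 67.2 and 56.4, a difference of -0.25. That is inside the probe SD of 0.31 but past the 0.23 of the brighter pairs. Bmp3, an atypical family member that antagonises other BMPs, had 14.1 and 10.6 (-0.41). Bmp7, Bmp8a, Bmp8b, Bmp10 and Bmp15 were below the floor on both arrays, and the median over BMP ligands was -0.33 with a floor at the 25th percentile, -0.41 at the 75th and -0.01 with no floor, over all 10 genes.

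Inhba encodes the beta A subunit that pairs with itself to form activin A, a ligand of the activin receptors and Smad2 and Smad3. Its deposited intensity was 1.16 for wild type and 6.79 for Rosa26-Foxm1, and after normalisation 1.15 and 6.86. The difference of 2.58 on the log2 scale placed it at rank 16 from the top of 9518 measured genes. The wild-type value was just above the floor, and with the floor at the 75th percentile neither array measured it. Inha, the alpha subunit that pairs with a beta subunit to form inhibin, had 2.12 and 2.29 (0.11). Inhbc and Inhbe, subunits known mainly from liver, were below the floor on both arrays. A macrophage marker list moved mostly upward beside Inhba, which macrophages and other cells can make: 14 of 21 measured markers were above 0 and 7 below. At least 1.5-fold higher were 8 (38.1%) and lower 2 (9.52%), beside 7.1% and 8.46% of all measured genes (11 and 3 markers with median scaling). Their summed intensity was 3095 for wild type and 3729 for Rosa26-Foxm1. Gpnmb (4.42) and Mmp12 (3.46) were highest in log2 difference, and Siglecf (-1.26), Marco (-0.75, a bound) and Adgre1 (-0.56) lowest. Each of the 21 passed the floor on one array or both, and Marco was below it in Rosa26-Foxm1 lung. Their part in the Inhba value was not tested.

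Among GDF genes, Gdf10, a BMP3-like ligand, had 4.60 and 4.88 (0.09). Gdf9, known as an oocyte factor, had 0.32 for wild type, under the floor, and 1.79 for Rosa26-Foxm1, at least 1.78-fold higher. Gdf2, which encodes the circulating endothelial ligand BMP9 made in liver, and Gdf3, Gdf5 and Gdf6 were below the floor on both arrays.

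**Figure D2:**
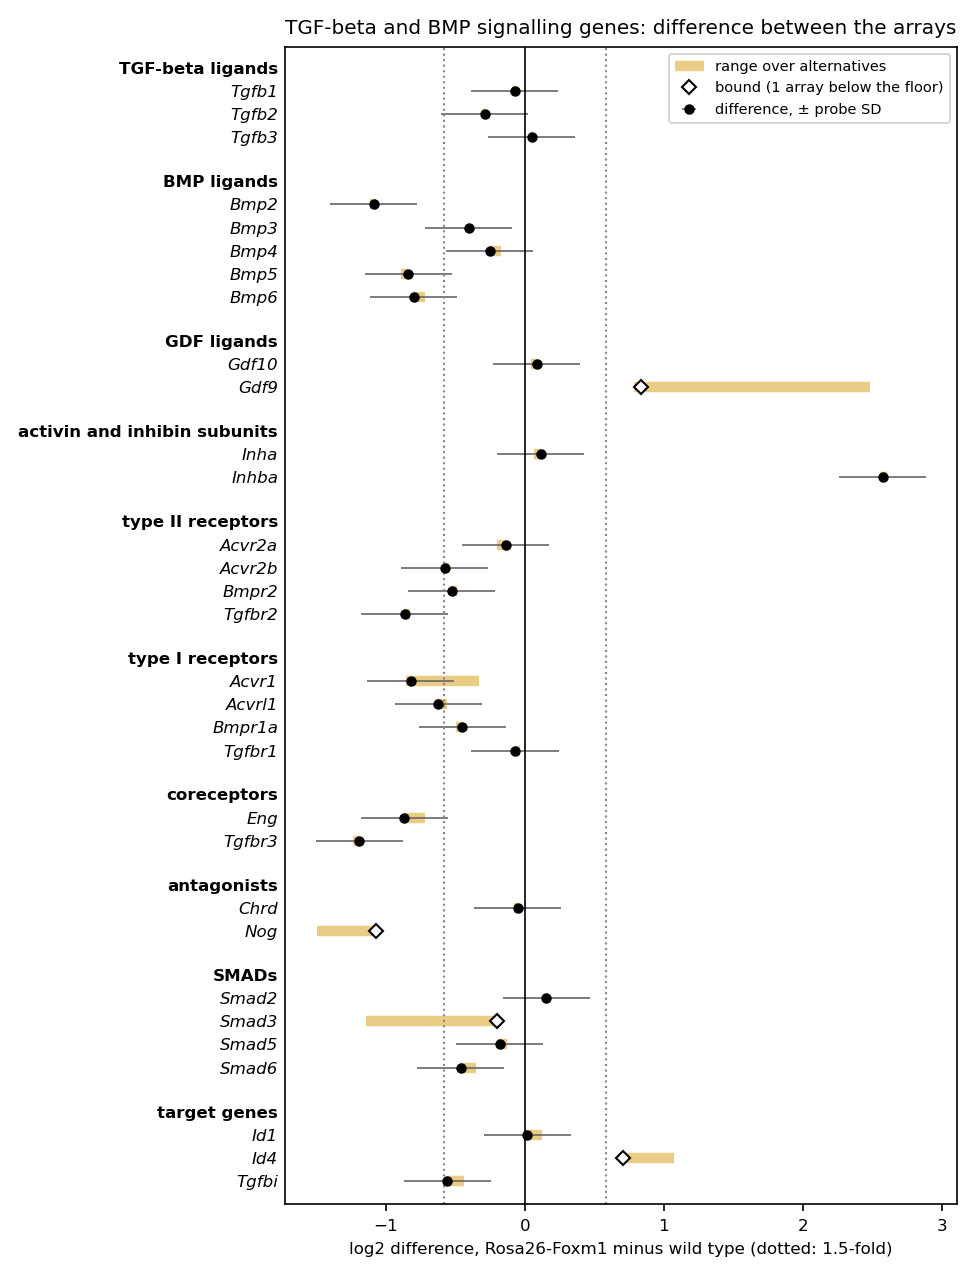
Log2 difference (Rosa26-Foxm1 minus wild type) of the 31 measured genes by role, as points with the probe SD of 0.31 as error bar; open diamonds are bounds where 1 array was below the floor, yellow bars give the range over the alternative settings, and dotted lines mark 1.5-fold. All 10 receptors and all 5 BMP ligands lie left of 0, and Inhba stands at 2.58. The 3 TGF-beta ligands lie within the probe SD of 0, with Tgfb2 at -0.29.

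The 4 type II receptors, which bind ligand and phosphorylate their partners, were each dimmer in Rosa26-Foxm1 lung, with a median of -0.55. Tgfbr2, the TGF-beta receptor whose promoter is shown above, went from 43.3 to 23.7. Acvr2b, a receptor for activins and several BMPs, had 34.0 and 22.8, a fold of 1.49 that stops just short of 1.5-fold. Bmpr2, the BMP receptor mutated in hereditary pulmonary arterial hypertension, had 27.4 and 19.0 (1.44-fold lower). All 3 differed by more than the probe SD. Acvr2a, the other activin type II receptor, was dim at 2.02 and 1.84, and its -0.14 did not.

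The type I receptors carry the signal to the SMADs. Acvr1, also called ALK2, a receptor for BMP6 and BMP7, had 9.40 for wild type and 5.32 for Rosa26-Foxm1 (1.77-fold lower). Acvrl1, or ALK1, the endothelial receptor for BMP9 and BMP10 that is mutated in hereditary haemorrhagic telangiectasia, had 83.5 and 54.1. Its 1.54-fold difference is the one just inside 1.5-fold, and on the deposited values it was -0.56, just outside. Bmpr1a had 2.21 and 1.62 (-0.45). Tgfbr1, the TGF-beta type I receptor ALK5, was level at 25.4 and 24.2 (-0.07), inside the probe SD, beside -0.87 for its partner Tgfbr2. Whether the pair differed from each other was not tested. Acvr1b and Bmpr1b were below the floor on both arrays.

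Both coreceptors were lower. Eng encodes endoglin, the endothelial coreceptor that works with ALK1 and is likewise a gene of hereditary haemorrhagic telangiectasia. Its normalised intensity was 216 for wild type and 118 for Rosa26-Foxm1, and its deposited intensity 203 and 122.9, which gives -0.72 without further scaling and -0.87 after quantile normalisation. Tgfbr3, or betaglycan, presents TGF-beta2 and inhibin to the signalling receptors. At 6.48 and 2.84 it was the lowest of the 31 genes in difference (-1.19), with 0.80% of all measured genes lower still.

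Endothelial markers moved with these receptors. Of 28 measured endothelial markers, 27 were below 0 (24 with median scaling, where Egfl7, Ramp2 and Car4 turned), where 56% of all measured genes were. At least 1.5-fold lower were 13 (9 with median scaling), or 46.4%, where 8.46% of all measured genes were as low. The median of the 28 was -0.54 beside -0.60 for the 10 receptors. The summed normalised intensity of the endothelial markers was 3771 for wild type and 2470.0 for Rosa26-Foxm1, a ratio of 0.66. Pecam1 had 329 and 156, Calcrl differed by -1.15 and Epas1 by -1.10, Ramp2 (-0.08) and Egfl7 (-0.06) were near 0, and Vwf was at 0.49. Each passed the floor on one array or both, and Erg was below it in Rosa26-Foxm1 lung. The part of these markers in the receptor values was not tested, and in RNA of whole lobes fewer cells of a type and less RNA per cell cannot be told apart. Fibroblast markers were lower to a smaller degree, with 16 of 19 below 0 (14 with median scaling, where Col3a1 and Dcn turned) and a median of -0.24. Of the 19, 4 (21.1%) were at least 1.5-fold lower and 1 (5.26%) higher, beside 8.46% and 7.1% of all measured genes. Their summed intensities were 1948 and 1601. Npnt (-0.98), Pdgfra (-0.88) and Pdgfrb (-0.79) were at the low end and Pi16 (0.76), Mfap5 (0.56) and Lum (0.52) at the high end. Smooth muscle and pericyte markers had 11 of 13 below 0, a median of -0.28 and summed intensities of 510.0 and 418, from Notch3 (-0.70), Cald1 (-0.60) and Des (-0.56) to Actg2 (0.11) and Rgs5 (0.23). The part of both lists in the values of the ligands and receptors was not tested either.

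Of the secreted antagonists, Nog encodes noggin, which sequesters BMP2 and BMP4. It had 2.10 in wild-type lung and was below the floor at 0.74 in Rosa26-Foxm1 lung, at least 2.10-fold lower. Chrd, which encodes the BMP antagonist chordin, was level at 6.89 and 6.66 (-0.05). Grem1, the BMP antagonist gremlin known from fibrotic lung, did not reach the floor. The antagonists thus gave 1 bound downward and 1 value near 0.

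Of 6 SMAD genes, 4 were measured. Smad2 had 13.9 and 15.4 (0.15) and Smad5 8.17 and 7.21 (-0.18), both inside the probe SD. Smad6 is an inhibitory SMAD strongly expressed in endothelium and itself induced by BMP. It was past the probe SD, at 118 for wild type and 85.5 for Rosa26-Foxm1 (-0.46). Smad3 was barely above the floor for wild type at 1.15 and below it for Rosa26-Foxm1 at 0.52, so its difference is only bounded at -0.20; with the floor at the 25th percentile it was -1.14. Smad1 and Smad9 were below the floor on both arrays. With the floor at the median, Smad2, Smad5 and Smad6 were less than 1.5-fold apart. For Smad3 the bound decides neither this nor whether it passed the probe SD.

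Among the target genes in the symbol rule, Id1, the inhibitor of bHLH factors that BMP induces directly, was level at 99.3 for wild type and 100.5 for Rosa26-Foxm1 (0.02). Its difference was inside the probe SD, while those of the BMP receptors Acvrl1 and Bmpr2 and of the ligand Bmp6 were past it downward. Id4 had 0.78, below the floor, and 1.64, at least 1.63-fold higher. Tgfbi, a secreted matrix protein named for its induction by TGF-beta, had 180.4 and 122.5 (1.47-fold lower, -0.56).

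**Figure D3:**
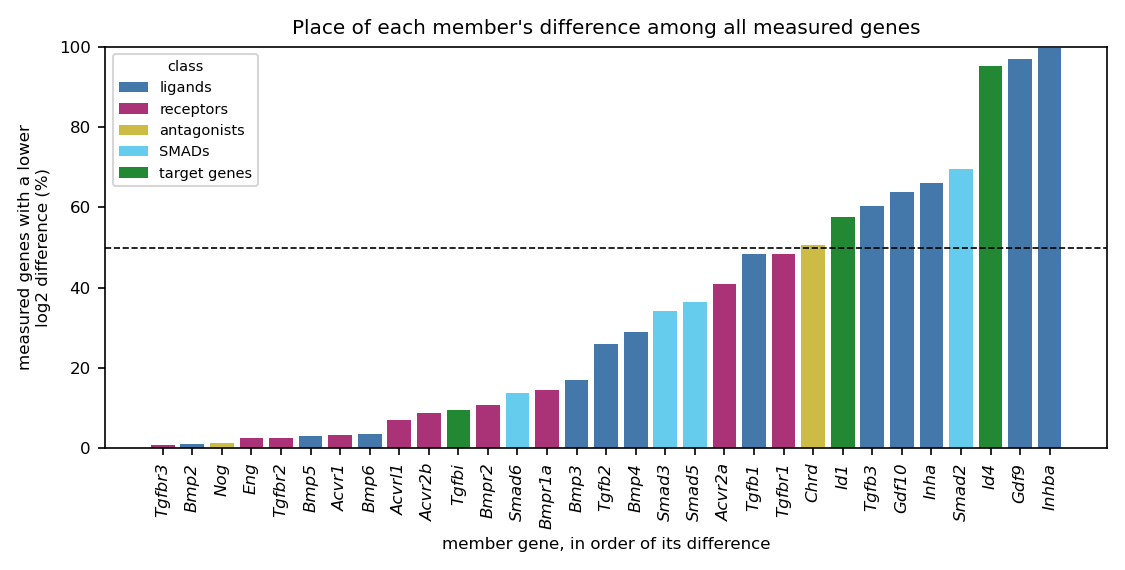
For each of the 31 measured genes, the share (%) of the 9518 measured genes whose log2 difference was lower, with bars coloured by class and a dashed line at 50%. Tgfbr3 stands lowest at 0.80% and Inhba highest at 99.8%, and the 10 receptors all stand below the dashed line; Gdf9, Id4, Nog and Smad3 are placed by their bounds.

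Other genes of the pathway were taken in 6 lists, together 139 genes, of which 87 were measured: 15 were at least 1.5-fold lower and 3 higher, 70 lay below 0, and the median was -0.20. The 15 lower genes were 17.2% of the 87, where 8.46% of all measured genes were as low. With median scaling 12 were lower, 3 higher and 69 below 0. In the list of latency, activation and processing, 14 of 15 measured genes were below 0 (13 with median scaling, where Mmp14 turned), 3 of them at least 1.5-fold lower, and none was 1.5-fold higher. Ltbp4, a latent TGF-beta binding protein that also organises elastic fibres in lung, went from 92.8 to 45.2 (2.05-fold lower), and Ltbp1, which anchors latent TGF-beta in the matrix, from 53.0 to 34.3 (1.54-fold lower). Mmp9, a gelatinase able to release TGF-beta, differed by -0.60. Itgb6, the subunit of the epithelial integrin that activates TGF-beta, was level at 5.22 and 4.82 (-0.12), as was Ltbp2 (-0.08), and Tll1, a protease of the BMP1 family, was at 0.39.

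In the list of other ligands and extracellular modulators, 3 of 12 measured genes were at least 1.5-fold lower (25%) and 1 was higher (8.33%). Over all measured genes these shares were 8.46% and 7.1%. Bmper, an endothelial BMP-binding protein, had 14.8 and 7.66 (1.93-fold lower), and Bgn, the small proteoglycan biglycan, 80.3 and 45.2 (1.78-fold lower). The third was Ltbp1, already counted in the list of latency, activation and processing. Fstl4, a follistatin-like gene, was at least 1.84-fold higher, its wild-type value being below the floor, and Fstl1 (0.13) and Fstl3 (0.07) were near 0. Among coreceptors and receptor regulators, 3 of 12 were lower (25%) and 1 higher (8.33%). Zfyve16, which encodes an endosomal SMAD anchor, was at least 2.95-fold lower and below the floor in Rosa26-Foxm1 lung. Cav1, the caveolin that internalises TGF-beta receptors and marks endothelium and type I cells, had 185 and 104 (1.77-fold lower), and Hjv, the BMP coreceptor hemojuvelin, 3.21 and 2.08 (1.54-fold lower). Rgmb (-0.05) was near 0, Amhr2 was at 0.28, and Pmepa1, a TGF-beta-induced inhibitor of the receptor's SMAD access, had 16.9 and 27.6 (1.63-fold higher).

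Of 19 measured intracellular modulators, 2 were at least 1.5-fold lower (none with median scaling) and none 1.5-fold higher, a lower share of 10.5% that is near the 8.46% of all measured genes. The 2 were the SMAD linker phosphatase Ctdsp2 (-0.63, but -0.29 as the median of its 2 probes) and the ubiquitin ligase Smurf2 (-0.59), next to the SMAD phosphatase Ppm1a (-0.55). At the other end stood Skil (0.51) and Tgif1 (0.41), SMAD corepressors, and Stub1 (0.48), a ubiquitin ligase.

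**Figure D4:**
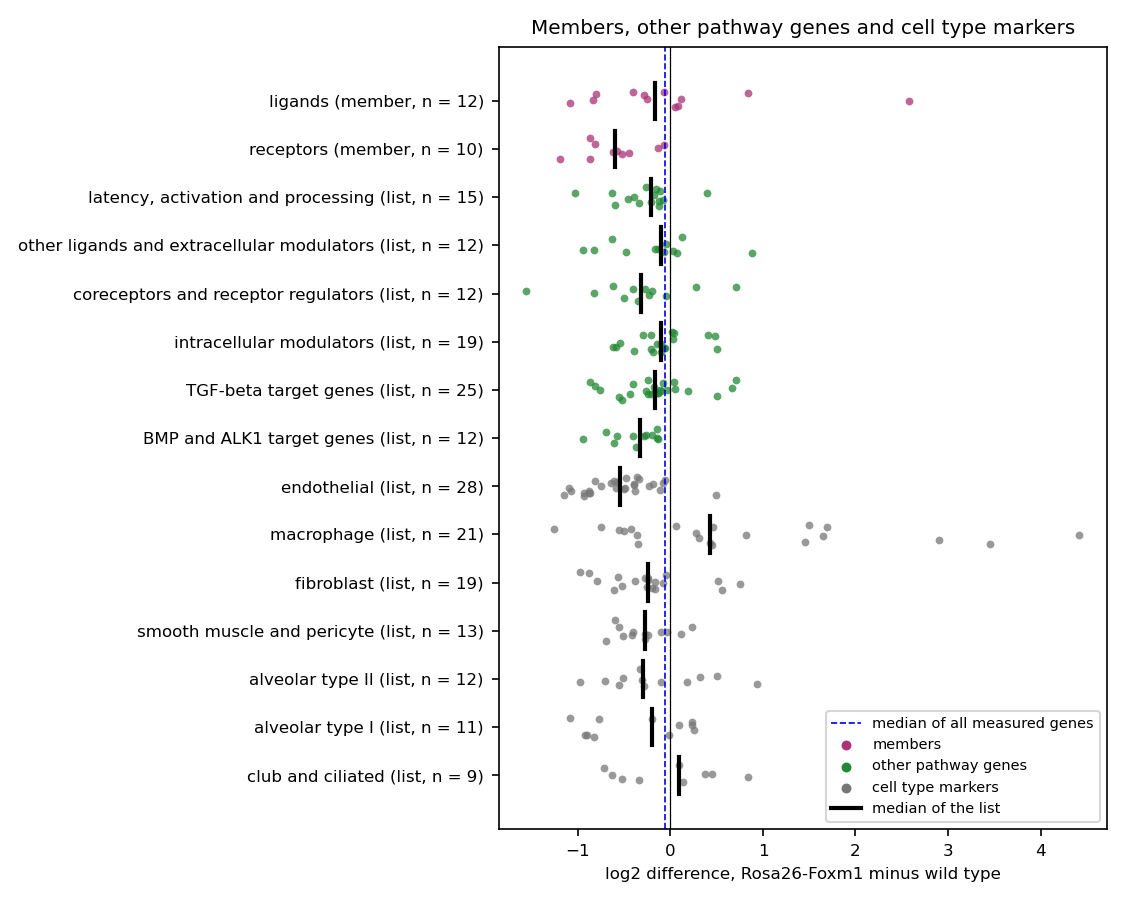
Log2 difference (Rosa26-Foxm1 minus wild type) of each measured gene among the ligands and receptors (purple), the 6 lists of other pathway genes (green) and the 7 lists of cell type markers (grey), with the median of each as a black bar and that of all measured genes as a dashed line. Receptors (median -0.60) and endothelial markers (-0.54) are the lowest rows, and macrophage markers (0.43) the highest.

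Target genes outside the symbol rule were split by branch. Of 12 measured genes in the list of BMP and ALK1 targets, all 12 were below 0, here and with each other scaling, with a median of -0.33. Over all measured genes 56% lay below 0. Of the 12, 3 (25%) were at least 1.5-fold lower (2 with median and 4 with loess scaling), where 8.46% of all measured genes were as low. The 3 were Bmper, the arterial connexin Gja5 (7.24 and 4.47, 1.62-fold lower) and Hey1, a Notch and BMP target (45.1 and 29.6, 1.52-fold lower). Hey2 (-0.15), Smurf1 (-0.14) and Atoh8 (-0.14) were the nearest to 0, inside the probe SD. Several genes of this list are known from endothelium, whose markers were lower as given above. Id1, at 0.02, was not part of that list. Of 25 measured TGF-beta targets, 19 were below 0 (18 with median scaling, where Col3a1 turned), with a median of -0.16, 3 at least 1.5-fold lower and 2 higher. Lox, which crosslinks collagen, had 26.8 and 14.7 (1.83-fold lower), the matricellular protein Postn 85.3 and 48.5 (1.76-fold lower) and Ccn2, the connective tissue growth factor, 175 and 103 (1.69-fold lower). Pmepa1 and tenascin C (Tnc, 12.1 and 19.3, 1.59-fold higher) were the higher ones, and Skil was at 0.51. Both counts of the TGF-beta targets, 12% lower and 8% higher, are near the shares over all measured genes, 8.46% lower and 7.1% higher. In all, 5 of the 29 genes of the list are also in the lists of cell type markers.

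The remaining marker lists checked the tissue and the epithelium. The club cell gene Scgb1a1 had 2544 and 1767 (-0.53, and -0.96 with loess scaling). Other lung markers ranged from bright, such as Sftpa1 at 1236 and 1757, to dim, such as Spag17 of ciliated cells at 1.59 and 2.84. Alveolar type II markers had 8 of 12 below 0, a median of -0.30 and summed intensities of 8873 and 9308, from Hc (-0.98), Etv5 (-0.71) and Slc34a2 (-0.56) to Cd74 (0.32), Sftpa1 (0.51) and Sftpd (0.94). Type I markers had 7 of 11 below 0 with a median of -0.20, which was 0.12 with median scaling, with 5 at least 1.5-fold lower under either scaling, from Col4a3 (-1.09, a bound), Scnn1g (-0.92) and Timp3 (-0.90) to Emp2 (0.25), Pdpn (0.24) and Cldn18 (0.24). Club and ciliated cell markers had 4 of 9 below 0 and a median of 0.09, but summed intensities of 6171 for wild type and 4616 for Rosa26-Foxm1. They ran from Cyp4b1 (-0.72) and Aldh1a1 (-0.63) to Dynlrb2 (0.45) and Spag17 (0.84). The macrophage list was the one with a median well above 0, at 0.43, with Siglecf (-1.26), Marco (-0.75, a bound) and Adgre1 (-0.56) at its low end and Trem2 at 2.91 among the highest. Foxm1 itself had 1.13 and 1.23 by its one probe, a difference of 0.11 close to the floor that does not check the genotype, since the sources used here do not say whether the probe matches the transgene.

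The 17 genes below the floor on both arrays were Acvr1b, Bmp2k, Bmp7, Bmp8a, Bmp8b, Bmp10, Bmp15, Bmpr1b, Gdf2, Gdf3, Gdf5, Gdf6, Grem1, Inhbc, Inhbe, Smad1 and Smad9. Their deposited intensities ran from 0.16 to 1.00 in wild-type and from 0.18 to 0.89 in Rosa26-Foxm1 lung. Bmp2k, a kinase named for its induction by BMP2, is matched by the symbol rule although it is not a ligand. Values below the floor have no order here, so no difference is read from them. That they were dim says only that these probes were not above the median of their arrays.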

How the data were processed

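Digoxigenin-labelled cRNA was made from column-purified, DNase-treated total lung RNA, per the labels' protocols. The authors deposited a linear intensity for each of 33012 probes on each array. Both columns had a median of 1.00. How the images were read, corrected for background and normalised is, in the sources used here, not given. Gene names come from the platform's annotation, updated by gene ID to RefSeq (GRCm38.p6). Of the probes, 14411 had 1 gene, 247 several and 18354 none listed.

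From these intensities, values were quantile normalised between the 2 arrays, set to a floor at the 50th percentile and put on the log2 scale (Python 3.11.15, numpy 2.4.6, pandas 2.3.3). Where a gene had several probes, the one of highest mean stood for it. No test was made with 1 array per group. The number of arrays limits the precision. Code was tested on simulated data.

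The genes and lists were chosen with earlier results of these data known. Every measured gene of the symbol rule may be named, and from each other list up to 3 genes at each end. Promoters shown and motifs searched were chosen after the values were seen. Alternatives were median scaling, deposited values, a loess fit (span 0.3), the 25th or the 75th percentile as floor, no floor, the median over probes and, added after the data were seen, genes above the floor on both arrays.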

Additional observations from a re-analysis of the deposited data

How the results depend on the processing

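With 1 array per group no replicate could be left out. No paired analysis was possible because each group has a single array and no test was made. A value is said to have moved where it shifted by more than the probe SD (divided by the square root of the number of genes for a median) or, for a count, by over 1.5 times. No value past 1.5-fold changed sign. Of the 9 lower genes, 7 stayed at least 1.5-fold lower in every alternative that measured them; the exceptions were Acvrl1 (-0.56 with median scaling and with the deposited values) and Acvr1 (-0.33 with the floor at the 75th percentile, which cuts its Rosa26-Foxm1 value). Inhba, Gdf9 and Id4 stayed 1.5-fold higher wherever measured, but the floor at the 75th percentile measured none of them. Acvr2b passed 1.5-fold with loess scaling (-0.59), and Smad3 with the floor at the 25th percentile or no floor (-1.14). The median over the measured genes of the symbol rule was -0.29. It became -0.18 with a floor at the 25th percentile (42 genes), -0.37 at the 75th (18 genes), -0.16 with no floor (48 genes) and -0.41 over those that both arrays held above the floor. The count at least 1.5-fold higher, 3, became 6, 0, 8 and 1 in the same order, and the count lower, 9, became 4 at the 75th. Over all genes the counts of 676 higher and 805 lower became 1361 and 1548 at the 25th percentile, 238 and 289 at the 75th and 1827 and 2000 with no floor, where more or fewer dim genes enter. The receptor median stayed between -0.62 and -0.55 in all 7 alternatives. The ligand median changed from -0.16 to 0.04 with no floor.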

Other observations

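A probe that the annotation assigns to both Gdf1 and Cers1, genes transcribed as a shared message, was left out of the count of genes because it does not carry Gdf1 alone. Its deposited values were 4.86 for wild type and 4.02 for Rosa26-Foxm1, and after quantile normalisation 4.79 and 4.07, a log2 difference of -0.23 that is inside the probe SD of 0.31.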
